A study of Mus musculus with 8 samples.

Results

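The mitochondrial ribosomal protein genes were taken as every gene of the deposited expression table whose symbol begins with Mrpl or Mrps followed by a digit. There were 78 of them among 11704 listed genes, 49 with a large subunit symbol (Mrpl) and 29 with a small subunit symbol (Mrps). All 78 protein-coding genes of this name pattern in the GENCODE M21 annotation of GRCm38 were listed, and all 78 passed the filter on low values, which asked for a mean rescaled FPKM of 1 or more. They were read in 8 RNA sequencing libraries of mouse heart. Of these, 4 came from hearts transduced with AAV-FGF17, an adeno-associated virus of serotype 9 that carried mouse Fgf17, and 4 from hearts transduced with its control vector. The virus was injected under the skin of newborn mice in both groups and hearts were taken at 8 to 10 weeks of age. Strain, sex, dose and the promoter of the vector are not given in the sources used here, and the column names contain the word sham, so whether the animals were operated on is not known.

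Mitochondria translate the few proteins that their own DNA encodes on ribosomes of their own, the mitoribosomes. Each mitoribosome has a large subunit, which joins amino acids into the chain, and a small subunit, which holds the messenger RNA. Its protein parts are all encoded in the nucleus, made in the cytosol and imported, and its products are core subunits of the respiratory chain and ATP synthase, on which heart muscle depends for its energy. In humans, inherited faults in MRPL3, MRPL44 and MRPS22 are known causes of cardiomyopathy.

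Fgf17 was checked first. It measured 92.1, 196, 68.9 and 127 rescaled FPKM in AAV-FGF17 libraries 1 to 4, against 9.84, 1.28, 0.470 and 9.99 in control libraries 1 to 4. The groups did not overlap, and the limma adjusted p over all genes was 0.0932. Values here and below are FPKM, in which fragments are counted relative to transcript length and to all mapped fragments, divided by a median-of-ratios factor per library that ran from 0.883 to 1.0025 in AAV-FGF17 libraries and from 0.975 to 1.19 in control libraries. The factor was used because transcripts of the mitochondrial genome took between 62.8% and 66.9% of all FPKM in AAV-FGF17 libraries, against 64.0%, 44.5%, 30.9% and 64.1% in control libraries 1 to 4. Control libraries 2 and 3 stand apart in this share. Control libraries 1 and 4 were close to each other in it and in Fgf17, which was higher in them than in control libraries 2 and 3. All 8 cardiomyocyte markers examined were listed, with a summed level of 11500 to 13950 rescaled FPKM in AAV-FGF17 libraries and 11880, 16610, 19830 and 11410 in control libraries 1 to 4, so control libraries 2 and 3 stood apart in these markers too. The liver markers Alb and Apoa1 were not listed. In whole hearts, fewer cells of a type and less RNA per cell cannot be told apart.

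No mitochondrial ribosomal protein gene passed the test between the groups. With limma, 0 of 78 had an adjusted p under 0.05, against 0% of all 9985 tested genes, and the smallest adjusted p among them was 0.563. At an unadjusted p under 0.05, 7 of the 78 were higher in AAV-FGF17 hearts (8.97%, against 4.63% of all tested genes) and 1 was lower (1.28%, against 3.88%). With FPKM as deposited this balance turned, to 0 members higher and 5 lower, with 136 genes higher and 800 lower over all tested genes. Without AAV-FGF17 library 4 it was 1 member higher and 3 lower, with 278 genes higher and 305 lower over all tested genes. The fitted log2 changes ran from -1.13 to 0.50 with a median of 0.04, and the median of all tested genes was 0.00. The median was 0.06 for large subunit symbols and 0.03 for small subunit symbols. These medians are positive after rescaling and turn negative with FPKM as deposited, at -0.09 for all 78, -0.09 for the large and -0.12 for the small subunit, where the median of all tested genes lies at -0.12.

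The intervals give the precision of the change after 1 was added to each rescaled FPKM, a scale on which the change of low genes is understated. They rest on the spread between samples, which may be technical. For 75 of the 78 genes the 95% interval of the change lay within a 2-fold difference in either direction, and for 59 it lay within a 1.5-fold difference. Of all 9985 tested genes, 9420 and 7115 did so. The median half-width of the interval was 0.28 on the log2 scale. The 3 genes with wider intervals were Mrpl53, Mrpl52 and Mrpl32, which were picked out after their values were seen.

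**Figure D1:**
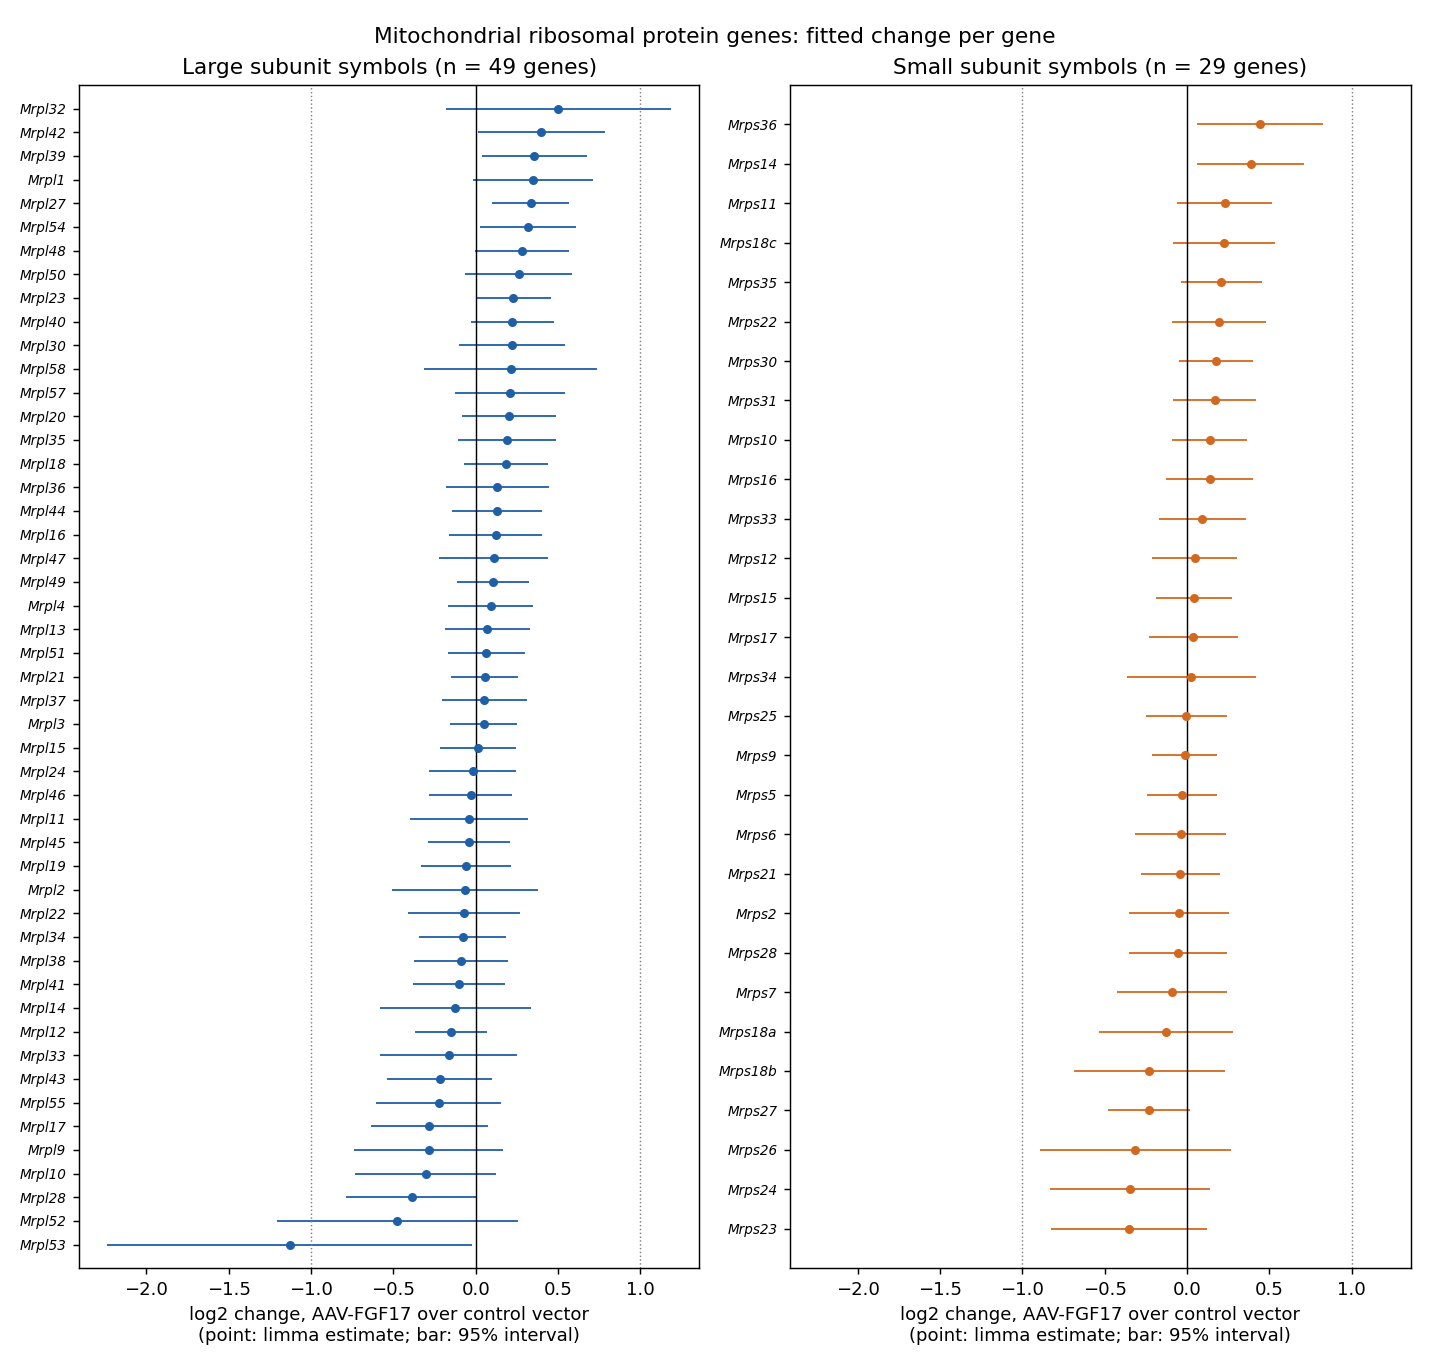
Fitted log2 change of each of the 78 genes, AAV-FGF17 over control vector, with its 95% interval, sorted within the 49 large and 29 small subunit symbols; dotted lines mark a 2-fold difference. Most estimates lie near 0, and the intervals of Mrpl53, Mrpl52 and Mrpl32 reach past a dotted line.

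In 3 genes every AAV-FGF17 library lay above every control library, and in 0 genes below. That is 3.85% of the 78, against 2.87% of all tested genes for above, and 2.43% of all tested genes lay below. All 3, Mrpl27, Mrpl40 and Mrpl23, belong to the large subunit, and none passed limma. Their promoter windows are printed because these genes are the ones whose groups separated, and that of Mrps11, a small subunit gene, because this gene overlaps the large subunit gene Mrpl46 head to head on the opposite strand. Each runs from 250 bases before to 50 after the transcription start, 5′ to 3′ on the strand of the gene, from RefSeq on GRCm38.p6. The deposited coordinates start Mrpl23 at 142532686, before the whole of its window, so the motif search did not cover that start. Capitals mark the letters of 3 motifs searched on both strands: CCGGAAG for ETS factors such as GABPA, GCGCATGC for NRF1 and AAGATGGCG for YY1, all regulators known for nuclear genes of mitochondrial proteins.
Mrpl27, chr11:94653541-94653840, plus strand, with an ETS motif: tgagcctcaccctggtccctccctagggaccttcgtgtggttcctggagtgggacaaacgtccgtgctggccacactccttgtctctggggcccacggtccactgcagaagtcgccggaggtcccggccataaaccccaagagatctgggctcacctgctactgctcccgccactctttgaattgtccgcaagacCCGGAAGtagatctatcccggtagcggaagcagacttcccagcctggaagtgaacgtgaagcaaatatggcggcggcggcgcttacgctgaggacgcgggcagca
Mrpl40, chr16:18876588-18876887, minus strand, with no match: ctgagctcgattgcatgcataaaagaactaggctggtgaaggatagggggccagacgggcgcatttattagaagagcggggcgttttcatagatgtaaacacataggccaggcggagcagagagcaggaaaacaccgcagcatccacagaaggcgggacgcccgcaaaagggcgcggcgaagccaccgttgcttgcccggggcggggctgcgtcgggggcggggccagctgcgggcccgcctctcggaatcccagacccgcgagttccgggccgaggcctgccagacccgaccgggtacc
Mrpl23, chr7:142532782-142533081, plus strand, with no match: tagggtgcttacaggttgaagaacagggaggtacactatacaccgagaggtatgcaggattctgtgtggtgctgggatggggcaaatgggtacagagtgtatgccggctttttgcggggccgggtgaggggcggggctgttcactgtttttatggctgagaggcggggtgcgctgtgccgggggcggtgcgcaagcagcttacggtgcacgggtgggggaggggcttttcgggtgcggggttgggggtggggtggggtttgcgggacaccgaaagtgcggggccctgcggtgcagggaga
Mrps11, chr7:78782881-78783180, plus strand, with a YY1 motif on the opposite strand: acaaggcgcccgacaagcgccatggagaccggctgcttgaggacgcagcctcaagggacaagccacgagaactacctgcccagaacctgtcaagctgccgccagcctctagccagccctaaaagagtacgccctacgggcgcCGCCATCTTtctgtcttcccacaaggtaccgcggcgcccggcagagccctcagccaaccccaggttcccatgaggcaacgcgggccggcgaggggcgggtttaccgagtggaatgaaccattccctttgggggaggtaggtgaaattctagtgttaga

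Windows were found for 69 of the 78 genes. The ETS letters stood in 26 of them (37.7%), against 20.2% of the genes of the table that had a window and 9.93% of all genes with one. The NRF1 letters stood in 8 (11.6%, against 6.03% and 3.05%), and so did the YY1 letters (11.6%, against 3.73% and 1.64%). At least 1 of the motifs was present in 36 genes, whose median log2 change was 0.05, against 0.04 in the 33 without. By motif, the median was -0.20 in the 8 genes with the NRF1 letters and 0.05 in the 61 without, 0.00 in the 26 with the ETS letters and 0.05 in the 43 without, and 0.09 in the 8 with the YY1 letters and 0.04 in the 61 without. These differences were not tested. A match is a run of letters and not a bound site.

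Mrpl27 encodes a large subunit protein whose bacterial counterpart, L27, reaches towards the peptidyl transferase centre, and it had the smallest p of the 78. It measured 19.3, 22.7, 22.3 and 24.7 rescaled FPKM in AAV-FGF17 libraries, against 18.0, 15.7, 18.4 and 17.5 in controls. Its log2 change was 0.33 ± 0.11 (SE; unadjusted p = 0.0099, limma adjusted p = 0.563), and 0.31 ± 0.11 without control libraries 2 and 3 (limma adjusted p = 0.864). On the opposite strand, exons of Eme1 cover 7.6% of its exon bases. The gene lies on chromosome 11, from 94653767 to 94660089 on the plus strand of GRCm38.

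Mrpl40, a protein of the central protuberance, the crest of the large subunit, measured 20.9, 21.9, 20.9 and 27.5 rescaled FPKM in AAV-FGF17 libraries, against 20.5, 18.8, 17.7 and 20.2 in controls. The lowest AAV-FGF17 library exceeded the highest control by a small margin, and library 4 stood apart from the other AAV-FGF17 libraries. Its log2 change was 0.22 ± 0.11 (SE, limma adjusted p = 0.563). Mrpl23, at the exit of the tunnel through which the new chain leaves, measured 7.87, 8.63, 7.84 and 9.10 rescaled FPKM in AAV-FGF17 libraries, against 6.95, 6.33, 6.94 and 7.73 in controls. Its log2 change was 0.23 ± 0.10 (SE, limma adjusted p = 0.563).

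Mrpl42, Mrpl39 and Mrpl54 had the next smallest p-values among large subunit genes with a positive change, and their values were lowest in control libraries 2 and 3. Mrpl42 measured 66.6, 81.1, 66.9 and 71.8 rescaled FPKM in AAV-FGF17 libraries, against 69.6, 43.6, 42.4 and 65.4 in controls. Control libraries 2 and 3 were low, while control library 1 lay within the AAV-FGF17 range and control library 4 just below it. Its log2 change of 0.40 ± 0.17 (SE, limma adjusted p = 0.563) was 0.08 without those libraries. Mrpl39, near the peptide exit, measured 30.4, 30.3, 27.8 and 28.5 rescaled FPKM in AAV-FGF17 libraries, against 26.4, 18.4, 19.3 and 27.9 in controls, and its change of 0.36 became 0.10. Mrpl54, of the stalk that recruits translation factors, measured 62.8, 77.7, 66.9 and 78.1 rescaled FPKM in AAV-FGF17 libraries, against 66.8, 49.4, 51.0 and 61.8 in controls, and its change of 0.32 became 0.14.

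Mrps14 and Mrps36 were the small subunit symbols with an unadjusted p under 0.05. Mrps14, a protein of the small subunit head, measured 3.37, 5.59, 4.68 and 5.69 rescaled FPKM in AAV-FGF17 libraries, against 3.65, 3.35, 3.58 and 3.04 in controls. AAV-FGF17 library 1 lay among the controls and the other 3 above them. The log2 change was 0.39 ± 0.15 (SE, limma adjusted p = 0.563), and 0.41 without control libraries 2 and 3. Mrps36 measured 27.5, 30.9, 23.7 and 32.8 rescaled FPKM in AAV-FGF17 libraries, against 23.6, 20.9, 14.7 and 25.4 in controls, with a log2 change of 0.44 ± 0.17 (SE, limma adjusted p = 0.563) that became 0.21 without those libraries. Despite its symbol, its product is known as a subunit that anchors the 2-oxoglutarate dehydrogenase complex and not as a part of the mitoribosome.

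Several genes with a negative change had their highest values in control libraries 2 and 3. Mrpl28 measured 19.9, 22.2, 23.0 and 26.6 rescaled FPKM in AAV-FGF17 libraries, against 25.5, 35.6, 39.9 and 22.9 in controls. Control libraries 2 and 3 were high and the others overlapped the AAV-FGF17 range. The log2 change of -0.39 ± 0.18 (SE, limma adjusted p = 0.563) was -0.08 without them. Mrps23, an abundant small subunit gene, measured 51.7, 64.7, 71.4 and 67.4 rescaled FPKM in AAV-FGF17 libraries, against 64.8, 122, 89.3 and 60.8 in controls, and its change of -0.35 was 0.01 without those libraries. Mrpl52 and Mrps26 were picked out after their values were seen. Mrpl52, of the central protuberance, measured 13.1, 12.5, 11.9 and 17.8 rescaled FPKM in AAV-FGF17 libraries, against 12.98, 25.1, 37.5 and 11.3 in controls, and its change of -0.48 was 0.16 without them. The same held for Mrps26, at 5.81, 5.90, 5.99 and 5.55 rescaled FPKM in AAV-FGF17 libraries, against 4.95, 7.75, 14.5 and 5.38 in controls, whose change of -0.32 was 0.14 without them. In all, the change of 23 of the 78 genes (29.5%, against 33.8% of all tested genes) took the other sign when control libraries 2 and 3 were left out. The change was then positive in 58 of the 78 (74.4%, against 51.4% of all tested genes), with a median of 0.08, where with all libraries it was positive in 43 (55.1%, against 50.9%). Every AAV-FGF17 library lay above both remaining controls in 11 of the 78 (14.1%), against 8.74% of all tested genes, and the smallest limma adjusted p among the 78 was 0.864. The remaining controls, libraries 1 and 4, were alike in mitochondrial share (64.0% and 64.1%) and in Fgf17 (9.84 and 9.99 rescaled FPKM). Whether they are independent samples is not known.

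Mrpl53, of the stalk, had the most negative estimate and the widest interval. It measured 1.19, 1.72, 5.87 and 7.79 rescaled FPKM in AAV-FGF17 libraries, against 4.53, 18.8, 6.98 and 8.45 in controls, a log2 change of -1.13 ± 0.50 (SE, limma adjusted p = 0.563), or -0.73 without control libraries 2 and 3. In the annotation 88.0% of its exon bases lie also in exons of the gene Gm42688 on the same strand, so the division of reads between them is uncertain. Gm42688 measured 5.78, 6.27, 5.01 and 6.79 rescaled FPKM in AAV-FGF17 libraries, against 5.80, 2.56, 3.68 and 4.10 in controls. Mrps27, which belongs to the body of the small subunit and contains RNA-binding repeats, measured 14.6, 14.3, 11.7 and 15.1 rescaled FPKM in AAV-FGF17 libraries, against 14.8, 17.4, 17.9 and 15.9 in controls, a log2 change of -0.23 ± 0.11 (SE, limma adjusted p = 0.563), or -0.14 without control libraries 2 and 3. A transcript on the opposite strand covers 24.2% of its exon bases. Mrpl17 stood at 2.11 ± 0.409 rescaled FPKM in hearts given AAV-FGF17 and 2.81 ± 0.746 in controls (SD, n = 4 each). Mrps24, at 8.95 ± 1.54 in AAV-FGF17 hearts and 12.01 ± 4.36 in controls, shares 15.4% of its exon bases with Urgcp on the same strand.

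**Figure D2:**
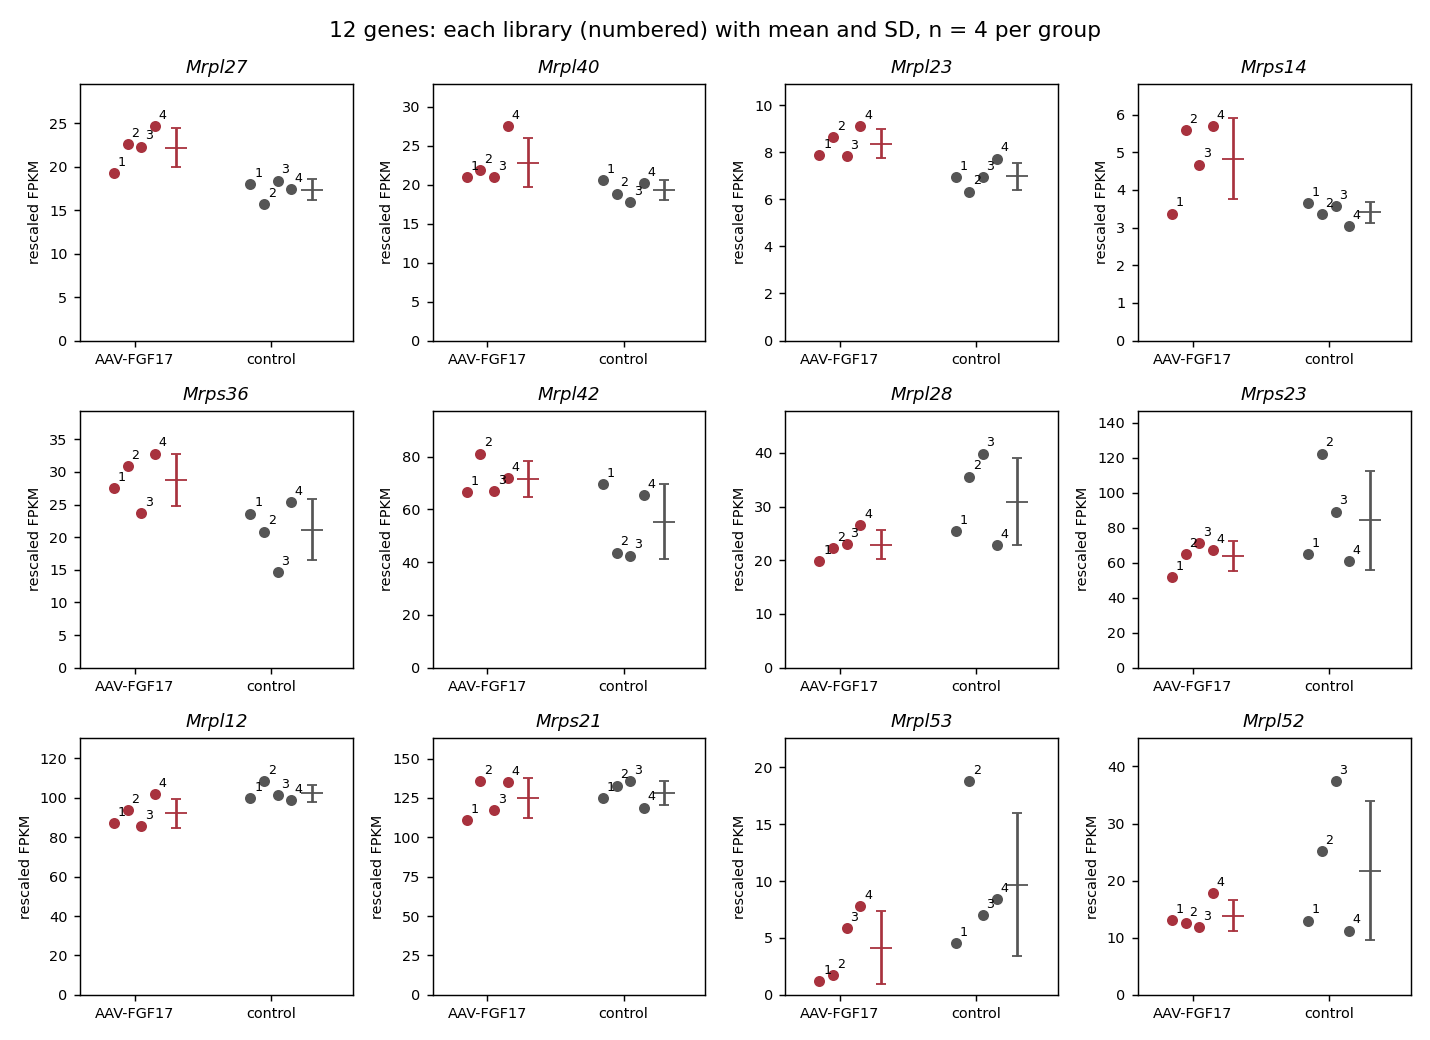
Rescaled FPKM of 12 genes in each library, AAV-FGF17 left and control right, with replicate numbers beside the points and the mean and SD (n = 4) beside each group; axes start at 0. Mrpl27, Mrpl40 and Mrpl23 separate the groups, while Mrpl42, Mrpl28, Mrps23 and Mrpl52 differ in control libraries 2 and 3.

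The levels of the 78 genes, as rescaled FPKM averaged over the 8 libraries, spanned 86.8-fold, with a median of 14.3. Mrps21 was the highest at 126, followed by Mrpl12 at 97.1, Mrpl18 at 94.6 and Mrpl34 at 84.4, and Mrps10, named after its value was seen, was the lowest at 1.46. FPKM is per length of transcript, but base composition and exon overlaps also differ between genes, so this order of levels is approximate. Mrpl12 forms the flexible stalk and is known to be present in several copies per ribosome, and it measured 87.0, 93.6, 85.8 and 102 in AAV-FGF17 libraries, against 99.6, 109, 102 and 99.0 in controls. The groups overlapped, with a log2 change of -0.15 (95% interval -0.37 to 0.07). Mrps21 stood at 125 ± 12.6 rescaled FPKM in hearts given AAV-FGF17 and 128 ± 7.73 in controls (SD, n = 4 each). Set the same way, Mrpl18 stood at 101 ± 12.3 against 88.4 ± 6.71 in controls and Mrpl34 at 82.2 ± 10.7 against 86.6 ± 6.93 in controls. Of the other abundant small subunit genes, Mrps28 stood at 38.5 ± 5.15 against 40.1 ± 5.58 in controls and Mrps15 at 38.1 ± 4.19 against 36.8 ± 1.93 in controls.

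The steadiest gene was Mrps9, with a coefficient of variation of 3.90% over the 8 libraries, against a median of 15.5% for the 78. It measured 11.99, 12.9, 11.8 and 12.1 rescaled FPKM in AAV-FGF17 libraries, against 12.05, 12.4, 13.04 and 11.8 in controls. Mrpl3, next to the peptidyl transferase centre, followed at 4.56%, with 7.01 ± 0.189 rescaled FPKM in hearts given AAV-FGF17 and 6.76 ± 0.389 in controls. These genes were picked out after their values were seen. Mrps30 and Mrps18a carry small subunit symbols, but their products sit in the large subunit. Mrps30 stood at 5.26 ± 0.506 rescaled FPKM in hearts given AAV-FGF17 and 4.53 ± 0.209 in controls, and Mrps18a at 6.06 ± 0.735 against 6.89 ± 2.33 in controls. Moving them to the large subunit left the subunit medians at 0.06 and 0.03.

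Some of the genes were also grouped by place in the mitoribosome, and the rest were put in no such group. The central protuberance genes, whose products in mammals surround a mitochondrial transfer RNA, had a median log2 change of 0.18 over 9 genes, of which 5 were positive. The stalk genes had -0.10 over 6, the peptide exit genes 0.04 over 8, and the conserved core genes Mrpl2, Mrpl3, Mrpl4 and Mrpl16 had 0.07, with Mrpl16 at 41.5 ± 6.38 rescaled FPKM in hearts given AAV-FGF17 and 37.8 ± 3.61 in controls. In the small subunit the head genes had 0.14 over 7, the body and platform genes -0.01 over 14, and the decoding and messenger channel genes -0.04 over 4. Without control libraries 2 and 3 the stalk median was 0.06, the central protuberance 0.15, the peptide exit 0.07 and the conserved core 0.17, and in the small subunit the head median was 0.11, the body and platform 0.04 and the decoding and messenger channel -0.10. None of these genes passed limma. The 44 genes numbered after a bacterial counterpart had a median of 0.03 and the 34 others a median of 0.08.

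The AAV-FGF17 libraries differed among themselves by more than the group medians did. The median gene of the 78, as log2 level minus its own mean over the 8 libraries, stood at -0.07, 0.11, -0.08 and 0.14 in AAV-FGF17 libraries 1 to 4, against -0.04, -0.01, 0.01 and -0.04 in control libraries 1 to 4. AAV-FGF17 libraries 2 and 4 were high and 1 and 3 low, with the median of each control library between them. Library 4 lay above the gene's own mean in 70 of the 78 genes (89.7%, against 52.2% of all tested genes) and library 2 in 59 (75.6%, against 54.0%), while libraries 1 and 3 did so in 19 and 18. Neither library 2 nor library 4 held the lowest of the 8 values for any of the 78 genes. The summed level of the 78 genes was 1589, 1861, 1620 and 1916 rescaled FPKM in AAV-FGF17 libraries, against 1669, 1824, 1789 and 1667 in controls. The large subunit summed to 1079, 1272, 1102 and 1318 rescaled FPKM in AAV-FGF17 libraries, against 1134, 1214, 1192 and 1134 in controls, with libraries 2 and 4 above every control. The small subunit summed to 510, 589, 518 and 599 in AAV-FGF17 libraries, against 535, 610, 597 and 534 in controls, and there control library 2 was the highest of all.

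Other measures also differed among the AAV-FGF17 libraries. Fgf17 itself was higher in libraries 2 and 4 (196 and 127 rescaled FPKM) than in libraries 1 and 3 (92.1 and 68.9). The summed level of 4 atrial markers (Nppa, Myl7, Sln and Myl4) was 1888, 630, 1815 and 872 rescaled FPKM in AAV-FGF17 libraries 1 to 4, against 2234, 1217, 2502 and 2224 in controls, so it was lowest in libraries 2 and 4. All 4 were listed. The 3 smooth muscle markers summed to 145, 85.8, 127 and 98.9 rescaled FPKM in AAV-FGF17 libraries and to between 145 and 173 in controls. The 3 listed skeletal muscle markers summed to 333, 341, 332 and 687 rescaled FPKM in AAV-FGF17 libraries, against 320, 546, 486 and 317 in controls, and the 4 erythroid markers to 1111, 1089, 921 and 1400, against 689, 1095, 948 and 656 in controls. Both were highest in AAV-FGF17 library 4, and library 2 lay near libraries 1 and 3 in them. Some marker sums separated the groups and others overlapped. The 4 endothelial markers summed to 97.6 to 116 rescaled FPKM in AAV-FGF17 libraries and 107 to 127 in controls. The 3 macrophage markers summed to 13.1 to 19.3 against 11.4 to 14.9 in controls. The 4 white adipocyte markers summed to 30.6 to 120 against 83.3 to 204 in controls. In the following sums the groups did not overlap. The 4 fibroblast markers summed to 132 to 141 rescaled FPKM in AAV-FGF17 libraries and 89.7 to 115 in controls, the 2 brown adipocyte markers to 31.9 to 46.7 against 57.5 to 70.8 in controls, and the 3 mesothelial markers to 4.53 to 11.1 against 14.1 to 15.7 in controls. The part of Fgf17 or of these cell types in the level of the ribosomal genes was not tested.

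**Figure D3:**
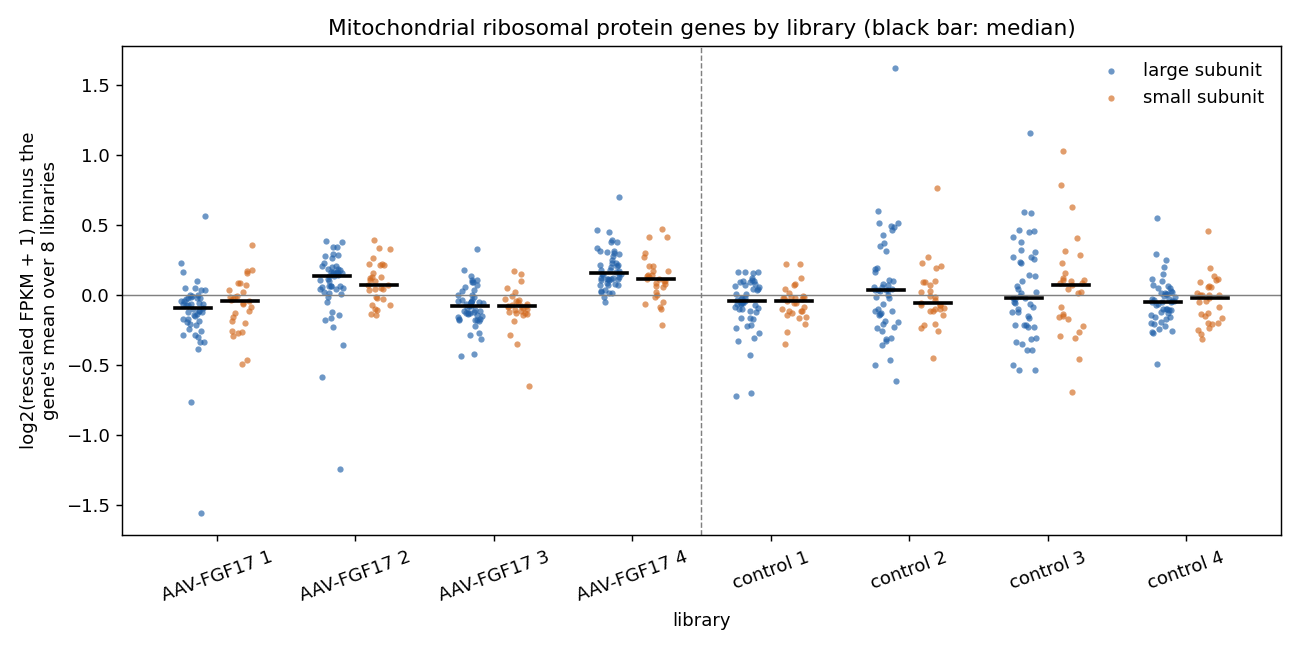
Each point is a gene, shown as log2(rescaled FPKM + 1) minus the gene's mean over the 8 libraries, by library and subunit, with the median as a black bar. AAV-FGF17 libraries 2 and 4 sit above 0 and 1 and 3 below it, and the points of control libraries 2 and 3 spread most widely.

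The levels were also set against the base composition of the transcripts. Across the 78 genes, Spearman's rho between the GC content of the transcript and the library's deviation from the gene mean was 0.20 in control library 2 and 0.46 in control library 3, and between -0.39 and -0.06 in the other 6 libraries. Over 9948 tested genes with a GC value the same rho was 0.19 and 0.60 in control libraries 2 and 3, and between -0.31 and -0.12 in the others. These are descriptions across genes, which share each library and are not independent replicates. Median log2 changes between the groups followed the same order: 0.18 in the 26 members of lowest GC content (41.4% to 48.8%), -0.02 in the middle 26 and -0.07 in the 26 of highest GC content (52.7% to 60.6%). Without control libraries 2 and 3 these medians were 0.10, 0.07 and 0.04. The part of GC content in any single gene's change was not tested.

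**Figure D4:**
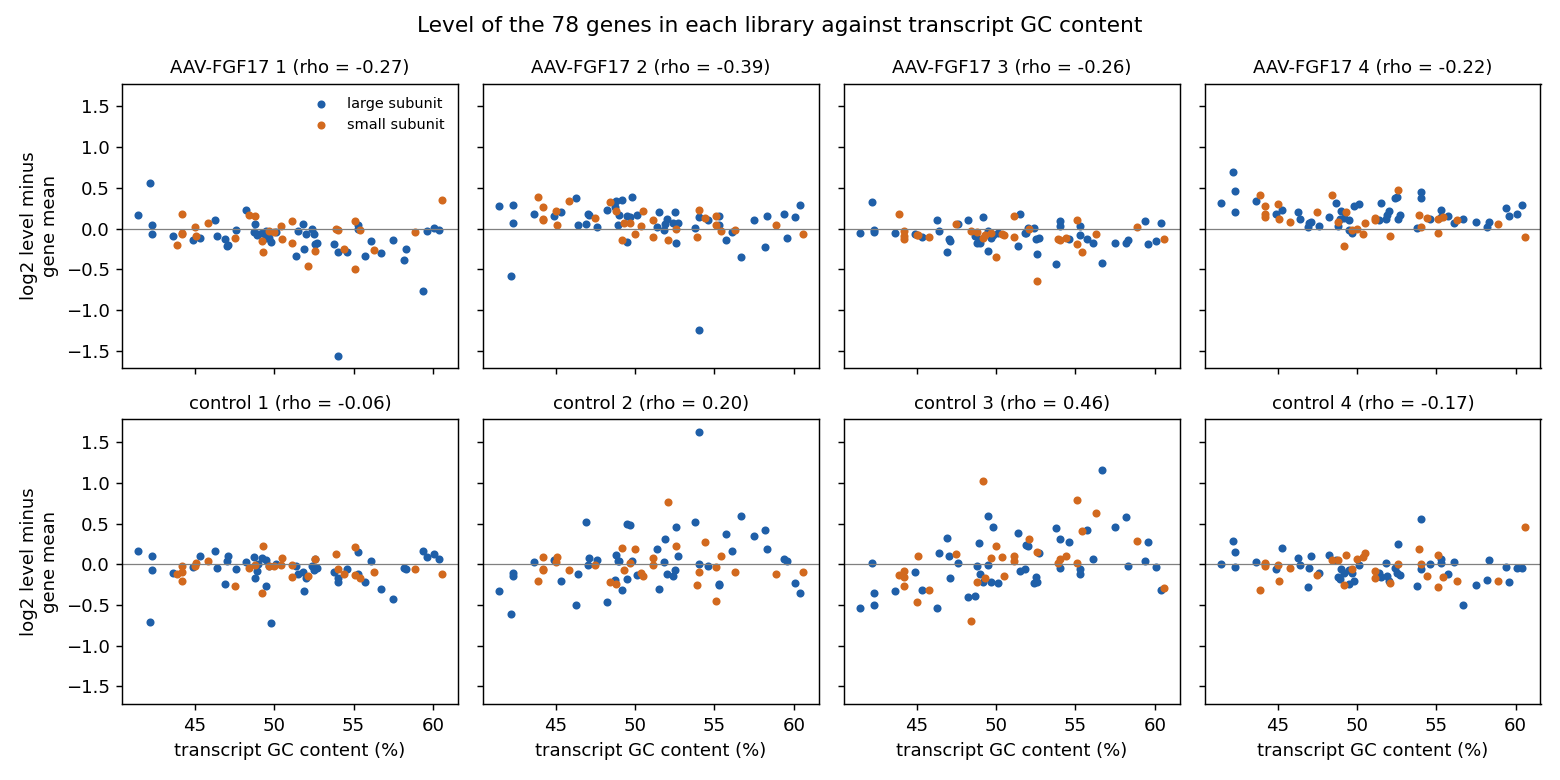
Each panel is a library: the x axis is the transcript GC content of the 78 genes in percent and the y axis the log2 level minus the gene's mean over the 8 libraries, with Spearman's rho in the title. The points slope upward in control library 3 (rho 0.46) and downward in AAV-FGF17 library 2 (rho -0.39).

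Genes that work with the mitoribosome were read from lists, and limma called 0 in each at an adjusted p under 0.05. At an unadjusted p under 0.05, which 4.63% of all tested genes met as higher and 3.88% as lower, there were 0 of the 6 other mitoribosomal proteins, and 3 higher and 1 lower of the 26 assembly factors. There were 1 higher and 0 lower of the 14 translation factors, 1 higher and 1 lower of the 19 synthetases, and 2 higher and 1 lower of the 10 mitochondrial DNA genes. The 2 genes of smallest p in each list are named. The 6 listed mitoribosomal proteins with other symbols had a median log2 change of 0.17, or 0.06 without control libraries 2 and 3, with Dap3, a small subunit protein, at 4.11, 4.76, 4.40 and 5.28 rescaled FPKM in AAV-FGF17 libraries, against 4.79, 6.59, 6.82 and 5.11 in controls. Oxa1l, which inserts new chains into the inner membrane, had a log2 change of 0.23 ± 0.13 (SE). Assembly factors had a median of -0.06 over 26 genes, or 0.02 without control libraries 2 and 3. Of them, 2 lay entirely above and 1 entirely below the controls, where 2.87% and 2.43% of all tested genes did. Tfb1m, which methylates the small ribosomal RNA of mitochondria, measured 5.85, 7.19, 5.38 and 6.34 rescaled FPKM in AAV-FGF17 libraries, against 4.48, 4.88, 3.29 and 3.54 in controls, a log2 change of 0.52 ± 0.14 (SE, limma adjusted p = 0.563). Rpusd4, a pseudouridine synthase acting on the large ribosomal RNA, stood the other way, at 2.21, 2.36, 1.69 and 2.37 rescaled FPKM in AAV-FGF17 libraries, against 2.78, 3.24, 4.14 and 3.31 in controls. In both the groups did not overlap, and neither passed the test. The 14 translation factors had a median of -0.02, the 19 mitochondrial aminoacyl-tRNA synthetases -0.08 and the 10 genes of mitochondrial DNA transcription and replication -0.09. Without control libraries 2 and 3 these medians were -0.06, -0.01 and 0.04. Slirp, a partner of LRPPRC in keeping mitochondrial messengers stable, had a log2 change of 0.55 ± 0.19 (SE), and the ribosome recycling factor Gfm2 one of -0.17 ± 0.09. For the synthetase Cars2 it was -0.29 ± 0.10, and for Gatc, a subunit of the amidotransferase that completes glutaminyl-tRNA, 0.66 ± 0.27. The single-strand DNA-binding protein gene Ssbp1 had 0.53 ± 0.18 and the helicase gene Twnk -0.23 ± 0.10.

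Cytosolic ribosomal proteins and the nuclear-encoded respiratory chain were set beside the 78 genes. Cytosolic ribosomal protein genes had a median log2 change of 0.03 over 87 genes, or 0.16 without control libraries 2 and 3, with Rpl39 at 0.42 ± 0.10 and Rpl32 at 0.39 ± 0.13 (SE). Of the 87, 16 were higher and 0 lower at an unadjusted p under 0.05, where 4.63% and 3.88% of all tested genes were. Entirely above the controls lay 14 and entirely below 0, where 2.87% and 2.43% of all tested genes did. In this list limma called 0 at an adjusted p under 0.05. Respiratory chain genes had a median of -0.00 over 81, or 0.09 without control libraries 2 and 3. Cox8a stood at 0.34 ± 0.12 and Ndufb10 at -0.45 ± 0.18 (SE). Of the 81, 6 were higher and 1 lower at an unadjusted p under 0.05, and 2 lay entirely above the controls and 0 below. The shares of all tested genes were 4.63%, 3.88%, 2.87% and 2.43% in the same order. By library, the cytosolic ribosomal proteins stood at -0.02, 0.07, -0.07 and 0.13 in AAV-FGF17 libraries, against -0.11, -0.01, 0.13 and -0.12 in controls. The respiratory chain stood at -0.10, 0.13, -0.15 and 0.14 in AAV-FGF17 libraries, against -0.08, 0.07, 0.15 and -0.13 in controls. All 3 lists were higher in AAV-FGF17 libraries 2 and 4 than in 1 and 3, and control library 3 was high in the respiratory chain and cytosolic lists and near 0 for the mitochondrial ribosomal genes. No test of a difference between the lists was made. The 13 transcripts of the mitochondrial genome, whose products the mitoribosome makes, had a median log2 change of 0.80, and of 0.06 without control libraries 2 and 3. Among them mt-Nd3 stood at 0.96 ± 0.35 and mt-Co3 at 0.65 ± 0.29 (SE).

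**Figure D5:**
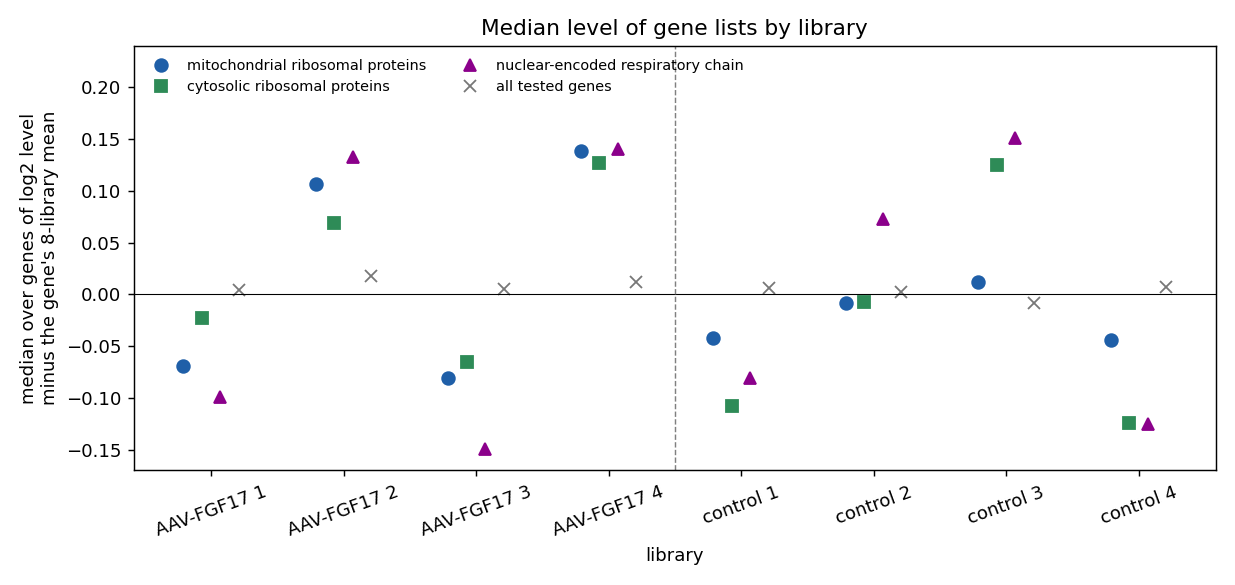
Median over the genes of each list of log2 level minus the gene's mean over the 8 libraries, one column per library with AAV-FGF17 left. The 3 ribosomal and respiratory lists are higher in AAV-FGF17 libraries 2 and 4 than in 1 and 3, and the median of all tested genes lies near 0.

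Some of the 78 genes share a start region with a neighbour, and the pairs described here were picked out after their values were seen. A protein-coding gene on the opposite strand started within 1000 bases of 33 of them, and 28 of these neighbours were listed. Mrps11 and Mrpl46, a small and a large subunit gene on chromosome 7 whose windows overlap, measured differently in level: Mrps11 had 2.16, 2.31, 2.19 and 2.23 rescaled FPKM in AAV-FGF17 libraries, against 1.73, 1.18, 1.999 and 2.21 in controls. Mrpl46 had 21.8, 25.9, 22.8 and 27.8 in AAV-FGF17 libraries, against 23.8, 26.5, 27.4 and 22.5 in controls. Mrps12, which encodes the protein beside the decoding centre, starts 172 bases from Sars2, a mitochondrial seryl-tRNA synthetase. Mrps12 stood at 26.1 ± 0.786 rescaled FPKM in hearts given AAV-FGF17 and 25.5 ± 4.10 in controls. Sars2 measured 1.14, 1.21, 0.906 and 1.01 in AAV-FGF17 libraries, against 0.973, 1.23, 2.11 and 1.51 in controls. Mrps34 starts 29 bases from Eme2, a DNA repair gene, which measured 0.456, 0.720, 0.396 and 0.177 rescaled FPKM in AAV-FGF17 libraries, against 1.56, 1.49, 2.07 and 1.19 in controls (limma adjusted p = 0.237). Mrps34 itself stood at 15.7 ± 2.85 in AAV-FGF17 hearts and 15.6 ± 4.02 in controls, and 63.4% of its exon bases lie opposite exons of Mapk8ip3. Exons of 33 of the 78 genes overlapped those of another gene by at least 1 base, and whether the authors' values used strand is not given in the sources used here.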

How the data were processed

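Per the labels' protocols, total RNA of mouse hearts was taken up in Trizol and made into Illumina libraries. StringTie 1.3.3, HISAT2 2.1.0, cutadapt 1.17, FastQC 0.11.7 and the build GRCm38 are named in the submitters' processing notes, and their settings are not given in the sources used here. Per the file headers, the authors deposited FPKM for each gene in each library. There are 11704 protein-coding genes, and 1 line without a gene was dropped. The lowest value of the larger group mean over these genes was 0.501 FPKM. Columns were matched to samples by name (17 for FGF17, v for vector, and the replicate number), and 0 columns were left over.

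FPKM shares one total with mitochondrial transcripts, so libraries were divided by median-of-ratios factors over the 11581 genes above 0 everywhere. Genes with a mean of at least 1 rescaled FPKM (9985) were compared on log2(rescaled FPKM + 1) by limma 3.58.1 (R 4.3.3), with no covariates, a trend of the variance on the mean, and Benjamini-Hochberg adjustment over all tested genes at 0.05. On this scale the change of low genes is understated. The fit was tested on simulated data. Depth is unknown. Among the 300 lowest values of single-transcript genes in each library, 27.0% to 31.0% lay within 0.1 of whole multiples of the best step. For a step fixed in advance, values without steps would give 20.0%, and choosing the best of many steps raises this share. Whole reads were not recovered. Precision is therefore given by the spread between libraries. Nothing in the labels states that each sample is a separate animal, so the p-values rest on the spread between samples, which may be technical.

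The members and lists were chosen with earlier results of these data known. The genes named were the 6 of smallest p in each direction, up to 6 in each direction whose groups did not overlap, the 4 most abundant per subunit, the smallest p in each place group, Mrps30 and Mrps18a. Places in the mitoribosome were assigned from general knowledge of its structure, and these groups and the cytosolic list were edited once the deposited values were at hand. In each companion list the 2 genes of smallest p were named. GC content and lengths are medians over the protein-coding transcripts in GENCODE M21, and exon overlaps come from it. Coordinates are those of the deposited table. Motifs were searched in RefSeq windows of 300 bases. Alternatives were other scalings, a pseudocount of 0.1, no filter, a replicate block, array quality weights, no variance trend, single libraries left out, control libraries 2 and 3 left out, and control libraries 1 and 4 averaged.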

Additional observations from a re-analysis of the deposited data

Results flagged for a closer look

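Of the values of the genes named by rule and of the subunit sums, 2 were marked because 1 library lay far from the other 3 of its group. Mrpl40 measured 27.5 rescaled FPKM in AAV-FGF17 library 4, above the other AAV-FGF17 libraries at 20.9, 21.9 and 20.9. Mrps18a measured 10.4 rescaled FPKM in control library 3, above the other control libraries at 5.90, 5.90 and 5.39. In all, 52 groups of 4 were examined, and chance alone marks about 1 in 20 of them.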

How the results depend on the processing

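Of the 78 mitochondrial ribosomal protein genes, 0 passed limma in the fit reported and under each of the alternatives run. Over all tested genes limma called 0 in the fit reported (462 higher and 387 lower at an unadjusted p under 0.05), 8 with array quality weights, 3 without control libraries 2 and 3, and 0 to 4 when single libraries were left out (4 without AAV-FGF17 library 3, 2 without control library 1 or 3, 1 without control library 2). The replicate block called 0, and 6 members were then higher and 1 lower at an unadjusted p under 0.05. Over all tested genes 445 were then higher and 408 lower. Same-numbered libraries did not deviate together (correlations of 0.00, 0.00, 0.03 and -0.10), and 1 of 4 AAV-FGF17 libraries correlated best with its own number. Deviations from the control mean also hold the difference of control libraries 2 and 3 from the others. These correlations therefore cannot decide whether the numbers pair the samples. The count of members with every AAV-FGF17 library above the controls was 0 with FPKM as deposited, 11 without control libraries 2 and 3, 5 with control libraries 1 and 4 averaged, and 3 to 10 with single libraries left out (10 without AAV-FGF17 library 3, 7 without AAV-FGF17 library 1 or control library 4, 6 without control library 1, 5 without AAV-FGF17 library 2 or control library 3). The count below was 1 with FPKM as deposited, 1 when scaled to genes not encoded in mitochondrial DNA, 1 with control libraries 1 and 4 averaged, and 0 to 3 with single libraries left out (3 without AAV-FGF17 library 4, 1 without control library 1). With fewer libraries in a group, any gene separates more easily. Over all tested genes 2.87% lay above in the fit reported and 8.74% without control libraries 2 and 3. For the other settings no such share is given, so their counts are not a result about the members. Median log2 changes moved by more than the spread between libraries with FPKM as deposited, to -0.094 for all members, -0.085 for the large and -0.115 for the small subunit, where the median of all genes was -0.118. Relative to the median gene, Mrps18a turned positive with array quality weights (0.009) and without control libraries 2 and 3 (0.077), Mrps28 likewise (0.014 and 0.095), and Mrps21 (0.023) and Mrps23 (0.009) without those libraries. With single libraries left out, Mrps21 ran from -0.09 to 0.008, Mrps28 from -0.118 to 0.019, Mrps18a from -0.22 to 0.062 and Mrps15 from -0.027 to 0.093. The causes were not tested. The 4 libraries per group and the unknown depth limit what could be seen.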
